A study of Mus musculus with 8 samples.

Results

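Phase II conjugation enzymes are the liver's second line of chemical defence. The genes followed here encode the glutathione S-transferases (GST and the membrane-bound Mgst), the UDP-glycosyltransferases (UGT) and the sulfotransferases (SULT). A gene was taken when its symbol was the only one listed for a probe set and belonged to the Gsta, Gstm, Gstp, Gstt, Gstk, Gsto, Gstz, Mgst, Ugt1a, Ugt2a, Ugt2b, Ugt3a or Sult families. This gave 46 of the 18193 genes on the arrays, 23 of them GST or Mgst, 10 UGT and 13 SULT. Each gene was read by its probe set of highest mean log2 signal, and 35 of the 46 had a single probe set. No Ugt1a gene entered, because each Ugt1a probe set lists several genes.

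Liver RNA was measured on 8 one-colour Affymetrix arrays, 2 for each of 4 groups. The groups were Sirt1 KO mice of 3 months (MT), and wild type mice (WT) of 3, 12 and 19 months. All mice were a mix of 129, FVB and Black Swiss, and the MT mice were Sirt1-/- animals from heterozygous crosses, so that Sirt1 was missing from every tissue and not from hepatocytes alone. Livers were taken in the morning. The study describes more mice in a group than there are arrays and does not say how RNA was assigned to arrays. The limma p-values here rest on the spread between the 2 arrays of a group, moderated by that of all tested probe sets. Part of that spread may be technical.

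A GST joins glutathione to electrophiles. A UGT of the Ugt1 or Ugt2 families joins glucuronic acid to bile pigments, steroids and drugs. A SULT joins sulfate from the donor PAPS to steroids, phenols and bile acids. The products are more soluble in water and leave the cell through export pumps. In mouse liver many of these genes answer to the receptors CAR, PXR and AhR or to the stress regulator NRF2, and several differ between the sexes, among them the female-predominant Sult2a and Sult3a1 and the male-predominant Gstp1.

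Some facts of the whole series bear on these genes. The Sirt1 probe set read 615 and 713 in MT livers, against 589 and 539 in 3-month-old WT livers, and its place relative to the deleted exons is not known here, so it does not check the genotype, and every direction below rests on the label MT. The methods describe the mutant mice as male, but on all 8 arrays the Xist probe sets stood at or above the 95.2 percentile of signals and the Y-linked probe sets at or below the 43.1 percentile, which goes against male livers in any group. The difference between the 3' and 5' probe sets of a control transcript is read as a sign of RNA integrity. For pyruvate carboxylase it was 3.88 to 3.93 log2 in MT and 3.88 to 4.25 log2 in WT livers of 3 months. At 12 and 19 months it was 4.54 to 5.86 log2. The other controls did not share this rise. Beta-actin stood at 0.97 to 1.48 log2 on the 3-month-old arrays and at 1.23 to 1.31 log2 on the older arrays. Gapdh stood at -0.62 to -0.38 log2 and at -0.46 to -0.34 log2. Of the 46 genes, 38 lay in the upper 50% of mean log2 signal and were tested (20 GST or Mgst, 9 UGT and 9 SULT). The others were Gsto2, Gstt4, Mgst2, Sult1c1, Sult2b1, Sult4a1, Sult6b1 and Ugt2b38, whose signals ran from 1.36 to 101, and no direction is given for them.

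The results turn on neighbouring genes, so the sequence just before their transcription starts is shown first. Gstm5, Gstm7, Gstm6, Gstm3, Gstm2, Gstm1 and Gstm4 follow each other in that order on chromosome 3 with no other coding gene between them. On chromosome 5 stand Ugt2b34, Ugt2b1, Ugt2b35, Ugt2b36, Ugt2b5, Ugt2b37, Ugt2a3, Ugt2b38, Ugt2a1, Ugt2a2, Sult1b1, Sult1d1 and Sult1e1. The 250 bases before the start are given from RefSeq for GRCm38.p6, read 5' to 3' on the strand of the gene, and where the table held several starts the most upstream of those within 1000 bases of another was used. Gstm7 (chr3:107931818-107932067), Gstm6 (chr3:107943735-107943984) and Gstm4 (chr3:108044860-108045109) had the lowest signals in MT relative to WT among the Gstm genes, and Gstm1 (chr3:108017974-108018223) did not share this. Their windows lie on the minus strand, and capitals mark the CCAAT box (CCAAT, either strand).
Gstm7: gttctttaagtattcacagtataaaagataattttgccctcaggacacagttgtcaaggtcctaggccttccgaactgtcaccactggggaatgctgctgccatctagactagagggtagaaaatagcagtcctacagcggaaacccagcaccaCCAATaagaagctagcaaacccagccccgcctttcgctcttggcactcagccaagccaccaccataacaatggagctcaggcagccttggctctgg
Gstm6: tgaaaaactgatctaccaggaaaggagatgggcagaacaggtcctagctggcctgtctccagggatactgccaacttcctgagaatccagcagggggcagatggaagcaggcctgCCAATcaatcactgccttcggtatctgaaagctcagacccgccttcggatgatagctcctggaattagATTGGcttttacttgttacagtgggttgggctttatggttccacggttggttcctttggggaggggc
Gstm4: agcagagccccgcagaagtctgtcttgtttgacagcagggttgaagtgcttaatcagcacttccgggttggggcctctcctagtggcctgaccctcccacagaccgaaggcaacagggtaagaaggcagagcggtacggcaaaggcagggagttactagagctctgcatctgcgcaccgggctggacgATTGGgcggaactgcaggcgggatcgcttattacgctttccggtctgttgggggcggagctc
Gstm1: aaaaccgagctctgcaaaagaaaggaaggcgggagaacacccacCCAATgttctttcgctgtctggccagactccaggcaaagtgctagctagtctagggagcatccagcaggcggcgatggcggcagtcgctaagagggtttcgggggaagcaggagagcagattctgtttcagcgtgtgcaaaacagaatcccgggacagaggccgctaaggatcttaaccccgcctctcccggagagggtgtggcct
All 4 windows hold a CCAAT box, but so do 33.8% of the 32851 promoter windows in the table. The table held 53 windows of 41 conjugation genes, and 25 of the 53, from 17 genes, hold this box. Ugt2b35 (chr5:87000610-87000859, plus strand) and Ugt2b37 (chr5:87254789-87255038, minus strand), both of the chromosome 5 cluster and of opposite sign in MT livers, are shown with the core of a site for HNF1, a liver transcription factor, in capitals (TTAATNATT, either strand).
Ugt2b35: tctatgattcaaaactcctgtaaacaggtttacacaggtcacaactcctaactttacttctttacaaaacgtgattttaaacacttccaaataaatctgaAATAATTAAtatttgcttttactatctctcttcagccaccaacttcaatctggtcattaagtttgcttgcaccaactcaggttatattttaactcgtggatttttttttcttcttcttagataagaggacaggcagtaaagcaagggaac
Ugt2b37: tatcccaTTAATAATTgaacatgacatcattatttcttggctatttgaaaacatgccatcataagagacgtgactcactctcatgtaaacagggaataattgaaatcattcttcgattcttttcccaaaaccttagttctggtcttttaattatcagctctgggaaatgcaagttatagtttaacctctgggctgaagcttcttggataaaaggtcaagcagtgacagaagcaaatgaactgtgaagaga
This core stood in 1.4% of all windows and in 5 of the 53 windows of the 41 genes. Those 5 belonged to Sult1d1, Ugt2b35, Ugt2b37, Ugt2b38 and Ugt2b5. CCAAT and the HNF1 core were picked after the windows had been read, the motifs may overlap one another, and a match is a description of letters and not of binding. The E-box CACGTG, read by clock factors, stood in 6.02% of all windows and in 0 of the 41 genes. The core of the antioxidant response element (TGACNNNGC), the site of NRF2, stood in 10.2% of all windows and in a window of Gsta3, Gstm5, Gstm7 and Mgst1. The GAS motif of STAT factors (TTCNNNGAA) stood in 7.02% of all windows and in a window of Gstm6 and Sult3a1. In Gstm6 and Gstm7 those matches lay in the window of another start than the one printed.

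The first comparison asked which conjugation genes differed in MT livers at 3 months. Gstm6, Gstm4 and Gstm7, genes of the mu class cluster, had the smallest p-values, with lower signals in MT, but no conjugation gene passed the test against 3-month-old WT livers. The count was 0 of 38 at a limma adjusted p under 0.05 over all 22519 tested probe sets, of which 0.515% were called in this comparison. At an unadjusted p under 0.05, 3 genes were higher and 5 lower, and the corresponding shares of all tested probe sets were 7.28% and 6.18%. The 2 MT arrays lay below both WT arrays for 17 of the 38 genes, which is 44.7% against 21.7% of all tested probe sets, and above both for 7, or 18.4% against 24% of all. The median log2 difference was -0.13 over the 38 genes and 0.02 over all tested probe sets, with 26 genes below 0 and 12 above, where 47.7% and 52.3% of all tested probe sets lay. The methods' t-test, at an unadjusted p under 0.05 and a fold over 1.5, took 4 genes as lower (Gstm4, Gstm6, Gstm7 and Ugt2b37) beside 2% of all tested probe sets, and 0 after Benjamini-Hochberg adjustment. It was run here on the upper 50% of signals, in place of the filter on MAS5 absence calls that the methods describe. A moderated F test over the 4 groups called 0 of 38 genes and 0.431% of all tested probe sets.

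Gstm enzymes are cytosolic transferases of the mu class that act on epoxides and other electrophiles. Gstm6 read 791 and 993 in MT livers, against 1884 and 2133 in 3-month-old WT livers, 2266 and 1802 at 12 months and 1928 and 1326 at 19 months. Both MT arrays lay below all 6 WT arrays. The log2 difference from 3-month-old WT was -1.18 with a standard error of 0.21 (limma adjusted p = 0.0532).

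Gstm4 read 1827 and 1542 in MT livers, against 3157 and 2810 in WT livers of 3 months, 2969 and 2576 of 12 months and 2614 and 2217 of 19 months. The MT arrays were again the lowest of the 8. The difference from 3-month-old WT was -0.83 log2 with a standard error of 0.16 (limma adjusted p = 0.0613).

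Gstm7 read 1961 and 1904 in MT livers, against 3038 and 3272 in 3-month-old WT livers, 4249 and 3935 in those of 12 months and 3763 and 2947 in those of 19 months. No WT array reached down to the MT arrays. The difference from 3-month-old WT was -0.71 log2 with a standard error of 0.15 (limma adjusted p = 0.0763). A second Gstm7 probe set of low signal read 93 and 189 in MT livers, against 114 and 98 in 3-month-old WT livers, and its difference of 0.32 log2 ran the other way.

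Gstm5, the first gene of the cluster, read 1749 and 1825 in MT livers, against 2076 and 2079 in 3-month-old WT livers, 2943 and 2541 in 12-month-old and 2319 and 2474 in 19-month-old WT livers. It too was lowest on the MT arrays, but by -0.22 log2 from 3-month-old WT (standard error 0.14, limma adjusted p = 0.535). The other 3 genes of the cluster were not set apart. Gstm1 read 28972 and 24694 in MT livers, against 25868 and 24956 in 3-month-old WT livers, a difference of 0.07 log2. Its other probe sets stood at 0.04, 0.16 and -0.24 log2. The last, with a standard error of 0.18, read 4512 and 5704 in MT livers and 5572 and 6409 in 3-month-old WT livers. Gstm2 and Gstm3 both stood at -0.21 log2, with standard errors of 0.39 and 0.33, and the second Gstm3 probe set stood at 0.12 log2. The array could share signal between members of this family through near-identical sequence, and how far the probes separate them is not known here.

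**Figure D1:**
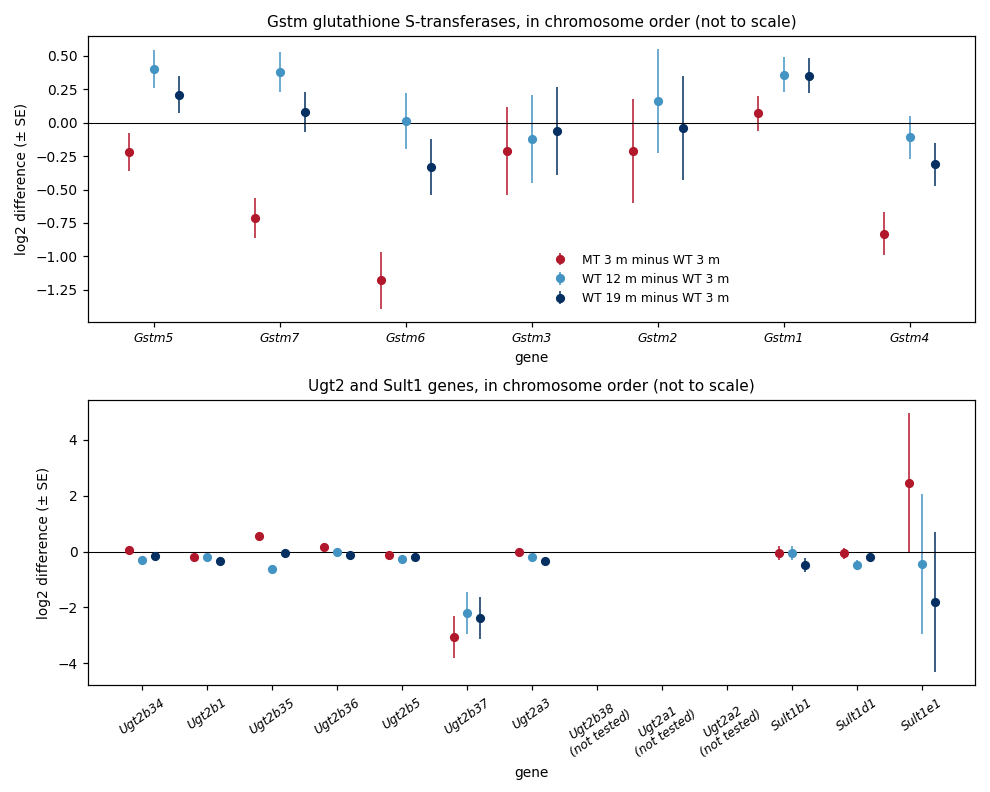
Log2 difference and its standard error (vertical axis) for the Gstm genes (upper panel) and the Ugt2 and Sult1 genes (lower panel) in the order they hold on the chromosome, for MT 3 m, WT 12 m and WT 19 m against WT 3 m. In MT livers Gstm7, Gstm6 and Gstm4 stood at -0.71, -1.18 and -0.83 while Gstm1 stood at 0.07, and Ugt2b37 at -3.06 stood apart from its neighbours.

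Because the MT arrays were lowest or highest of all 8 for some genes, MT was also set against the mean of the 3 WT groups, a contrast chosen after the data had been seen. It called 3 of the 38 genes, against 0.795% of all tested probe sets. Gstm7 was lower by -0.86 log2 (standard error 0.12, limma adjusted p = 0.021) and Gstm6 by -1.07 log2 (standard error 0.18, limma adjusted p = 0.0322). Ugt2b35 was higher by 0.77 log2 (standard error 0.13, limma adjusted p = 0.0322). Gstm4 missed the threshold at -0.69 log2 (standard error 0.13, limma adjusted p = 0.0506). Gstm1 stood at -0.16 log2. The Gstm1 probe set that read lower in MT stood at -0.48 log2 (standard error 0.14, limma adjusted p = 0.171), with MT and WT arrays overlapping. The 2 MT arrays lay below all 6 WT arrays for 4 genes, Gstm4, Gstm5, Gstm6 and Gstm7, which is 10.5% of the 38 against 6.61% of all tested probe sets, and above all 6 for 5, which is 13.2% against 7.36%. The 5 were Gsta2, Sult2a2, Ugt2b34, Ugt2b35 and Ugt2b36. The second Ugt2b34 probe set was not set apart in this way. It read 16736 and 15275 in MT livers, against 15385 and 15021 at 3 months and 15723 and 12603 at 19 months in WT. The calls were not stable when 1 array was left out. All 3 were lost without the second MT array or without either 3-month-old WT array. Gstm6 and Gstm7 were also lost without the first MT array, Gstm6 without the first 19-month-old array, and Ugt2b35 without either 19-month-old array. The differences themselves stayed at -0.92 to -0.8 log2 for Gstm7, -1.24 to -0.91 for Gstm6 and 0.55 to 0.99 for Ugt2b35. Such a fit has fewer arrays to estimate the spread, so a lost call does not show that it rested on that array. With the mean of both Gstm7 probe sets in place of the brighter one, Gstm7 stood at -0.19 log2 (limma adjusted p = 0.682).

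MT was also set against the older WT livers, again after the data had been seen. Against the 12-month-old WT livers alone, where 0.457% of all tested probe sets were called, 2 of the 38 genes passed. Gstm7 was lower in MT by -1.08 log2 (limma adjusted p = 0.0294) and Ugt2b35 higher by 1.18 log2 (limma adjusted p = 0.0286). Neither was called without the second MT array, without either 3-month-old or either 12-month-old array, or without a variance trend. Gstm7 was also lost without the first MT array and with the mean of its probe sets, and Ugt2b35 without either 19-month-old array. Against the 19-month-old WT livers, where 0.275% of all were called, none of the 38 passed, with Gstm7 at -0.78 log2 (limma adjusted p = 0.0778), Gstm6 at -0.85 log2 (0.155) and Ugt2b35 at 0.59 log2 (0.171, also an adjusted p). These contrasts share the MT arrays with one another, so they are not separate evidence.

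Ugt2b enzymes glucuronidate steroids, bile acids and drugs. Ugt2b35 read 9321 and 12610 in MT livers, against 7795 and 7161 in WT livers of 3 months, 4744 and 4815 of 12 months and 7505 and 6920 of 19 months. The MT arrays were the highest and the 12-month-old arrays the lowest of the 8, with no overlap. The difference between MT and 3-month-old WT was 0.54 log2 with a standard error of 0.15 (limma adjusted p = 0.169), and 0.32 log2 without the second MT array.

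Ugt2b37 read 235 and 119 in MT livers, against 1092 and 1784 in 3-month-old WT livers, 537 and 170 at 12 months and 612 and 118 at 19 months. The 3-month-old WT arrays were the highest, and the other 3 groups overlapped one another. MT stood at -3.06 log2 from 3-month-old WT with a standard error of 0.75 (limma adjusted p = 0.112). Among the UGT probe sets of highest mean signal, Ugt2b5 stood at 28733 and 33838 in MT livers and 34313 and 33926 in 3-month-old WT livers, and Ugt2b36 at 34637 and 34151 in MT livers and 30664 and 30239 in 3-month-old WT livers.

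Sult5a1, a sulfotransferase of little known substrate, read 1135 and 128 in MT livers, against 2702 and 3026 in 3-month-old WT livers, 775 and 1095 in 12-month-old and 1230 and 703 in 19-month-old WT livers. As with Ugt2b37, the 3-month-old WT arrays stood above the rest. The MT arrays lay far apart, and the difference of -2.91 log2 (standard error 0.77, limma adjusted p = 0.137) became -4.48 log2 (0.00453, adjusted) without the first MT array and -1.33 log2 (0.165, adjusted) without the second.

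Gsta2, an alpha class transferase that is induced by oxidants in rodents, read 6207 and 7553 in MT livers, against 2507 and 3704 in 3-month-old WT livers, 5704 and 3054 in 12-month-old and 6010 and 2744 in 19-month-old WT livers. The MT arrays were the highest, but the old WT arrays came close to them on 1 array of each pair. The difference from 3-month-old WT was 1.17 log2 with a standard error of 0.38 (limma adjusted p = 0.225). Gsta3, also of the alpha class, read 40909 and 36697 in MT livers and 40915 and 41916 in 3-month-old WT livers.

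Sult2a2, a steroid and bile acid sulfotransferase, read 46019 and 51531 in MT livers, against 30271 and 43470 in 3-month-old WT livers. The groups did not overlap, but the difference of 0.42 log2 (standard error 0.17, limma adjusted p = 0.316) became 0.16 log2 (0.839, adjusted) without the first WT array and 0.69 log2 (0.273, adjusted) without the second. Sult3a1, an amine sulfotransferase, read 53788 and 45415 in MT livers and 55090 and 54688 in 3-month-old WT livers. Mgst1, the membrane-bound transferase of the endoplasmic reticulum and outer mitochondrial membrane, read 65729 and 64846 in MT livers and 64385 and 62752 in 3-month-old WT livers. Sult1e1, the estrogen sulfotransferase, scattered too widely for any statement, at 318 and 3315 in MT livers against 228 and 153 in 3-month-old WT livers, 2578 and 7.23 at 12 months and 402 and 7.08 at 19 months.

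**Figure D2:**
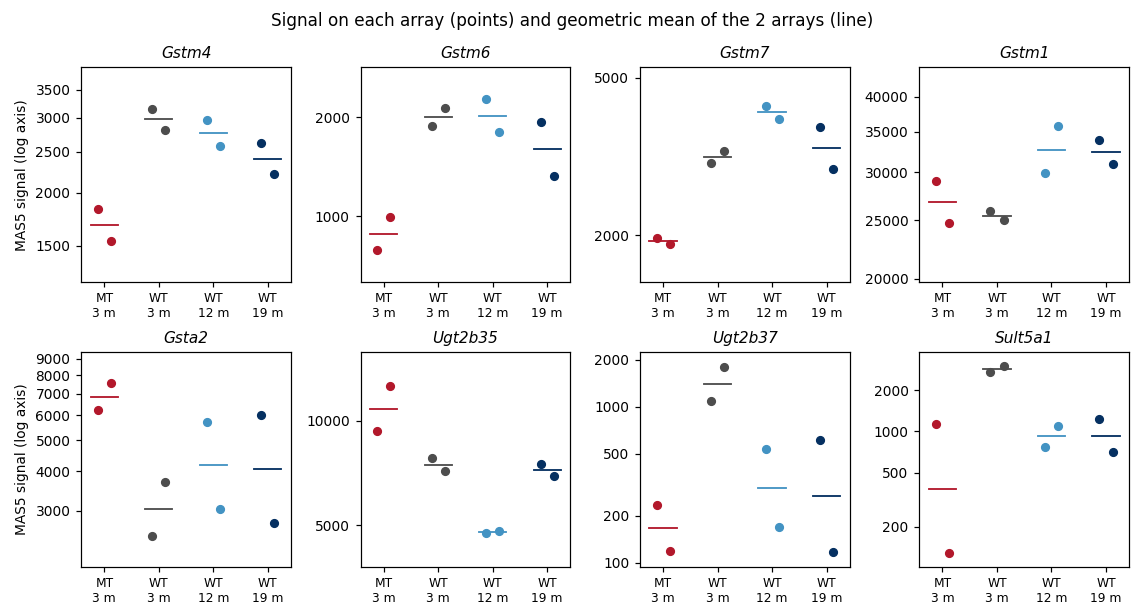
MAS5 signal on each array (points, log axis) of 8 conjugation genes in MT 3 m, WT 3 m, WT 12 m and WT 19 m livers, with the geometric mean of the 2 arrays as a line. Gstm4, Gstm6 and Gstm7 are lowest on the MT arrays, Ugt2b35 is highest there and lowest at 12 months, and Ugt2b37 and Sult5a1 are highest in 3-month-old WT livers.

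The second question was age, and again no conjugation gene passed the test. At 12 months against 3 months, 0 of 38 were called and 0.0133% of all tested probe sets were. At an unadjusted p under 0.05, 3 genes were higher and 6 lower at 12 months, or 7.89% and 15.8% of the 38, and the shares over all tested probe sets were 4.01% and 4.57%. Both 12-month-old arrays lay below both 3-month-old arrays for 17 genes, or 44.7% against 20.8% of all tested probe sets, and above both for 4, or 10.5% against 19.3%. The median log2 difference was -0.13 over the 38 genes and -0.0034 over all, with 27 genes below 0 and 11 above, where 50.5% and 49.5% of all lay. The methods' t-test took 2 genes as lower, Sult5a1 and Ugt2b35, beside 1.32% of all. All 9 UGT genes were below 0, with a median of -0.24, and 5 of the 7 Gstm genes were above 0.

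Ugt2b35 had the smallest p at this age. From the values above, its log2 difference between 12 and 3 months was -0.64 with a standard error of 0.15 (limma adjusted p = 0.288), and between 19 and 12 months it was 0.59 with the same standard error (limma adjusted p = 0.272). Its level was thus lower at 12 months than at either other age, without passing the test. Ugt2b34 read 13326 and 14715 at 12 months, against 17134 and 17827 at 3 months (-0.32 log2, standard error 0.11, limma adjusted p = 0.493), and its second probe set stood at -0.53 log2. Ugt2b37 stood at -2.21 log2 with a standard error of 0.75, and at -1.38 log2 without the second 12-month-old array.

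The 7 Gstm genes were mixed. Gstm5 stood at 0.40 log2 (standard error 0.14, limma adjusted p = 0.478) and Gstm7 at 0.38 log2 (standard error 0.15, limma adjusted p = 0.533), where its second probe set stood at -0.01 and the mean of both at 0.18. Gstm1, the main mu class transferase of the liver, read 29863 and 35777 at 12 months, against 25868 and 24956 at 3 months (0.36 log2, standard error 0.13, limma adjusted p = 0.496), and at 0.23 log2 without the second 12-month-old array. In these 3 genes both 12-month-old arrays lay above both 3-month-old arrays. In the other 4 the arrays overlapped, with Gstm2 at 0.16, Gstm6 at 0.01, Gstm4 at -0.11 and Gstm3 at -0.12 log2. The second Gstm3 probe set stood at 0.37 log2, also with overlap. Gstt1, a theta class transferase that acts on small halogenated compounds, read 16807 and 16831 at 12 months, against 20017 and 21528 at 3 months (-0.30 log2). Sult1d1, which sulfates catecholamines in rodents, read 8392 and 6192 at 12 months, against 10305 and 9977 at 3 months (-0.49 log2), and stood at -0.27 log2 without the second 12-month-old array.

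At 19 months against 3 months, 32 of the 38 genes were below 0 and 6 above, with none called and 0.0355% of all tested probe sets called. The median log2 difference was -0.23 over the 38 genes and 0.02 over all, of which 47% were below 0 and 53% above. After quantile normalization of the arrays the median over the 38 genes was -0.13. All 9 UGT genes, 8 of 9 SULT genes and 15 of 20 GST or Mgst genes were below 0. At an unadjusted p under 0.05, 9 genes were lower and 1 higher, or 23.7% and 2.63% of the 38, and over all tested probe sets the shares were 5.3% and 7.18%. Both 19-month-old arrays lay below both 3-month-old arrays for 20 genes, or 52.6% against 21.8% of all tested probe sets, and above both for 3, or 7.89% against 26.4%. The methods' t-test took 1 gene as lower, Gstk1, beside 1.36% of all.

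Gstt2, a theta class transferase, read 5287 and 3543 at 19 months, against 7120 and 7981 at 3 months, and stood at -0.80 log2 (standard error 0.21, limma adjusted p = 0.227), or -0.51 log2 without the second old array. Gstt1 read 16530 and 14330 at 19 months, against the 3-month values above, and stood at -0.43 log2 (standard error 0.12, limma adjusted p = 0.233). Gstk1, the kappa class transferase of mitochondria and peroxisomes, read 11632 and 9380 at 19 months, against 19060 and 19961 at 3 months (-0.90 log2, standard error 0.30, limma adjusted p = 0.296). Each of these was lower on both old arrays, but Gstk1 was also as low on 1 MT array, at 23885 and 10856 in MT livers. Gstz1, which isomerizes maleylacetoacetate in tyrosine breakdown, read 13874 and 13682 at 19 months, against 17868 and 17440 at 3 months (-0.36 log2, standard error 0.13, limma adjusted p = 0.32).

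Sult1a1, the phenol sulfotransferase, read 32708 and 21750 at 19 months, against 40072 and 38910 at 3 months (-0.57 log2, standard error 0.17, limma adjusted p = 0.265). The second old array was the lower, and the difference was -0.27 log2 without it and -0.86 log2 without the first. Ugt2a3 read 13208 and 10662 at 19 months, against 15159 and 15068 at 3 months (-0.35 log2, limma adjusted p = 0.366), and stood at -0.19 log2 without the second old array. Ugt2b37 stood at -2.38 log2 with a standard error of 0.75 (limma adjusted p = 0.274), and at -1.19 log2 without the second 19-month-old array. Gstm1 was the exception among the genes of small p, at 33878 and 30949 at 19 months, against 25868 and 24956 at 3 months (0.35 log2, standard error 0.13, limma adjusted p = 0.341).

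**Figure D3:**
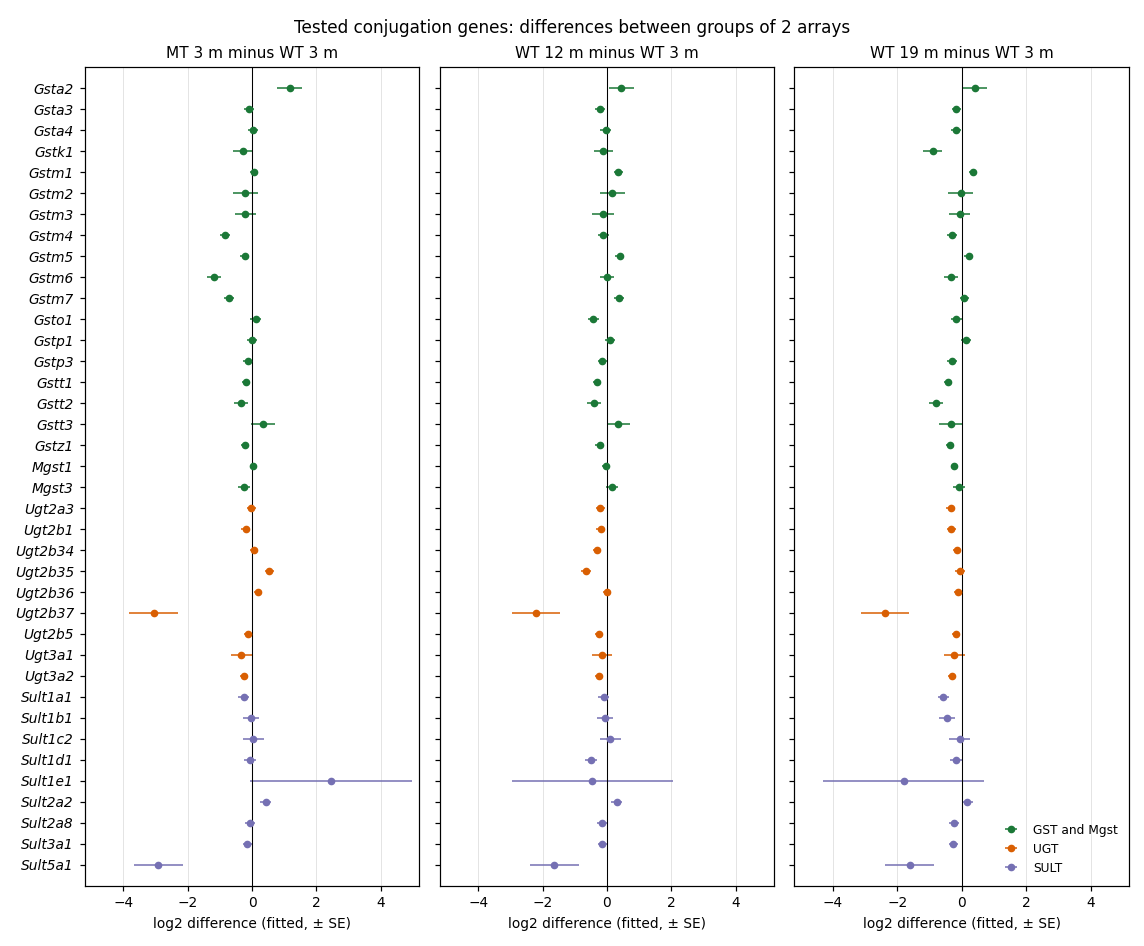
Fitted log2 difference with its standard error (horizontal axis) of the 38 tested conjugation genes (rows, GST and Mgst above UGT above SULT) in MT 3 m, WT 12 m and WT 19 m livers against WT 3 m livers. Of the 38 points 26 lie below 0 in MT, 27 at 12 months and 32 at 19 months, and no gene passed an adjusted p under 0.05 in any panel.

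These 3 comparisons share the 3-month-old WT arrays, so the lean below 0 in all of them is not repeated evidence. Between 19 and 12 months, which leaves those arrays out, 0 of 38 genes and 0% of all tested probe sets were called, and at an unadjusted p under 0.05 there was 1 gene above (Ugt2b35, beside 6.39% of all) and 2 below (Gstk1 and Sult1a1, beside 4.35%). The 19-month-old arrays lay below both 12-month-old arrays for 11 genes, or 28.9% against 17.5% of all, and above both for 3, or 7.89% against 23.8%. The median over the 38 genes was -0.14 log2 (0.03 over all), and -0.04 after quantile normalization, with 29 below 0 and 9 above, where 45.6% and 54.4% of all lay. The methods' t-test took 1 gene as higher, Ugt2b35, beside 1.59% of all.

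The lean at 19 months differed between the paired arrays. The first 19-month-old array read above the second for 34 of the 38 genes, with a median log2 gap of 0.31, where the gap over all tested probe sets was -0.03. The median gap was smaller in the other pairs, at -0.02 in MT livers, -0.02 in 3-month-old and 0.10 in 12-month-old WT livers. The first array read higher there for 18, 17 and 22 of the 38 genes. Some genes had similar gaps at 12 and 19 months, such as Gstm3 (1.08 and 0.83 log2) and Sult1d1 (0.44 and 0.35 log2). Others ran in opposite directions, such as Gstt2 (-0.19 and 0.58 log2). Without the second 19-month-old array the median log2 difference from 3 months was -0.07, and without the first it was -0.39. The difference of 19 from 12 months was 0.0086 without the second 19-month-old array and -0.29 without the first. The median size of the gap between paired arrays was 0.24 log2 over the 38 genes in MT livers, and 0.11, 0.21 and 0.31 log2 in WT livers of 3, 12 and 19 months. The 3-month-old WT arrays were thus the closest pair, with no gene over 1 log2 apart. Gstk1, Sult1e1 and Sult5a1 were over 1 log2 apart in MT livers, Gstm2, Gstm3, Sult1e1 and Ugt2b37 at 12 months, and Gsta2, Gstt3, Sult1c2, Sult1e1 and Ugt2b37 at 19 months.

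**Figure D4:**
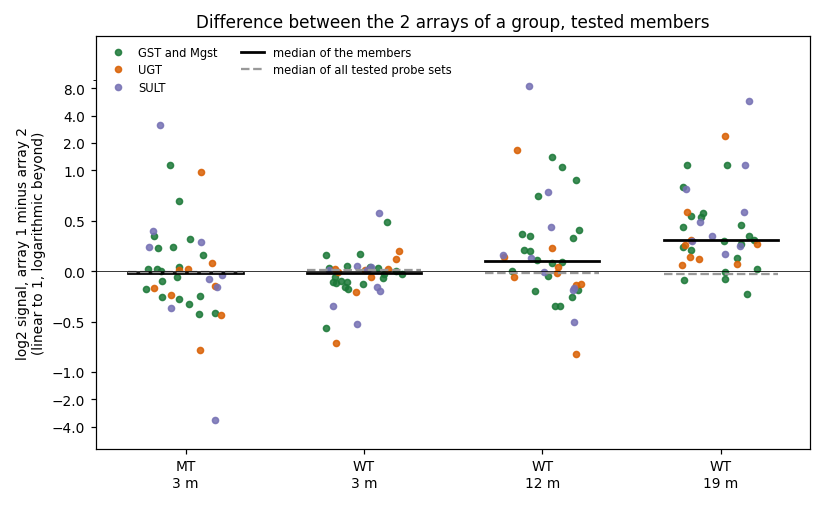
Log2 signal of array 1 minus array 2 (vertical axis, linear to 1 and logarithmic beyond) for the 38 tested conjugation genes in each group, with the median of the 38 (black line) and of all tested probe sets (dashed line). In 19-month-old WT livers 34 of 38 genes lie above 0 with a median of 0.31, and in the other groups the medians are -0.02, -0.02 and 0.10.

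Marker lists were read beside these differences. The summed signal of 8 hepatocyte markers measured ran from 397034 to 413099 in MT livers and from 369305 to 386756 in 3-month-old WT livers. At 12 months it ran from 362475 to 404719, on both sides of the 3-month-old WT range. At 19 months it ran from 316459 to 340082, below that range. The summed signal of 9 Kupffer cell and macrophage markers ran from 25503 to 38325 at 19 months, against 21128 to 21347 at 3 months, and all 9 had a difference above 0. B and plasma cell markers summed to between 7641 and 8458 at 19 months, against 1109 to 1418 at 3 months. Of 5 cholangiocyte markers on the array 1 was tested, and of 2 adipocyte and 4 kidney markers 0 were. Of 5 exocrine pancreas markers 2 were tested, of 4 neutrophil markers 3 and of 7 T and NK cell markers 5. The sums take all markers of a list on the array, and a few genes may carry them. In bulk liver, fewer hepatocytes and less of an RNA per hepatocyte cannot be told apart, and the part of these markers in the results was not tested. Neutrophil markers summed to between 1602 and 1794 at 19 months, against 769 to 833 at 3 months, and exocrine pancreas markers to between 1631 and 1992, against 4352 to 4908. In MT livers the macrophage markers summed to between 16792 and 18294, below the 3-month-old WT range. T and NK cell markers summed to between 545 and 571 in MT livers, against 878 to 928 in 3-month-old WT livers, and exocrine pancreas markers to between 2009 and 2135, against 4352 to 4908. Neutrophil markers summed to between 1130 and 1371 in MT livers, against 769 to 833 in 3-month-old WT livers, and all 3 tested were above 0. Pericentral hepatocyte genes summed to between 131464 and 141664 at 12 months and between 119203 and 134477 at 19 months, against 165376 to 171560 at 3 months. Periportal hepatocyte genes summed to between 182414 and 186323 at 19 months, against 229553 to 232209 at 3 months, with 11 of 12 below 0 (median -0.34).

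Sex-biased liver genes were read beside the sex-biased conjugation genes. Of 9 tested male-biased genes 6 were below 0 in MT against 3-month-old WT livers, with Cyp7b1, an oxysterol hydroxylase, called. It read 1670 and 1620 in MT livers, against 7842 and 6406 in 3-month-old WT livers (-2.11 log2, limma adjusted p = 0.000748). In all, 5 of the 9 were lower and 1 higher at an unadjusted p under 0.05, beside 6.18% and 7.28% of all tested probe sets. The median of the 9 was -0.53 log2. Serpina4-ps1 had the lowest difference, at 49 and 11 in MT livers against 579 and 887 in 3-month-old WT livers (-4.94 log2, standard error 0.95, limma adjusted p = 0.0613). Of 13 tested female-biased genes 6 were above 0 and 7 below in the same comparison, and none was called. At an unadjusted p under 0.05, 3 of the 13 were lower and 1 higher. Their median was -0.02 log2 and their lowest difference -2.11 log2. With age, 7 of the 9 male-biased genes were also below 0 at 12 and at 19 months against 3 months, with medians of -0.28 and -0.46 log2. Of the 9, 0 were called at 12 months and 1 at 19 months, beside 0.0133% and 0.0355% of all tested probe sets. Of the 13 female-biased genes 6 were below 0 at each age. The female-predominant Sult2a2 and Sult3a1 stood at 0.42 and -0.15 log2, and Gstp1, male-predominant in the mouse, at -0.0094 log2, with 23195 and 27688 in MT livers and 26961 and 24133 in 3-month-old WT livers. Stat5b, the growth hormone signal transducer behind much of this bias, read 846 and 738 in MT livers, against 1516 and 1432 in 3-month-old WT livers (-0.90 log2, limma adjusted p = 0.0528). Whether sex or growth hormone signalling had a part in the conjugation genes was not tested.

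None of the genes that feed and regulate conjugation was called, and those named here were picked after their values were seen. Of 13 tested genes of glutathione synthesis and turnover, 0 were called in MT against 3-month-old WT livers and in either age comparison. In MT livers 10 of the 13 were below 0 (median -0.18), with Gclc, the catalytic subunit of the first enzyme, at 10035 and 10022 in MT livers and 14064 and 11982 in 3-month-old WT livers (-0.37 log2, standard error 0.21, limma adjusted p = 0.475). Of 8 genes of UDP-glucuronate supply and deconjugation and 11 of PAPS supply and sulfate handling, 0 were called in any of these comparisons. Papss2, which makes PAPS in liver, read 8486 and 6299 in MT livers and 10267 and 9951 in 3-month-old WT livers, and 7964 and 5471 at 19 months.

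Of 8 conjugate exporters 0 were called in MT against 3-month-old WT livers, with 3 above 0 and 5 below (median -0.18). The highest was Abcc4, a basolateral pump for conjugates, which read 741 and 1086 in MT livers, against 477 and 495 in 3-month-old WT livers (0.88 log2, standard error 0.22, limma adjusted p = 0.124). The lowest was Abcc5, at 216 and 118 in MT livers against 314 and 237 in 3-month-old WT livers (-0.77 log2, standard error 0.40, limma adjusted p = 0.45). Of 16 regulators 0 were called in MT or at either age. Nfe2l2, which encodes NRF2, stood at -0.08 log2, Nr1i3, which encodes CAR, at 0.15 log2 and Ahr at 0.30 log2 in MT. None of 8 reporter genes of NRF2 and none of 9 of CAR, PXR and AhR was called in these comparisons. The medians in MT against 3-month-old WT livers were -0.13 and 0.14 log2. Against all WT groups they were -0.23 log2, with 6 of 8 below 0, and 0.60 log2, with 8 of 9 above 0, and none was called. Against 12-month-old WT livers the medians were 0.03 and 0.64 log2. There 1 NRF2 gene was called lower and 1 gene of CAR, PXR and AhR higher, beside 0.457% of all tested probe sets. Among the NRF2 genes, Nqo1 stood at -0.37 log2 in MT livers, with 294 and 252 in MT and 324 and 382 in 3-month-old WT livers.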

How the data were processed

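Liver RNA of 8 samples was hybridised to one-colour arrays. What the authors deposited was the MAS5 signal intensity of each probe set, linear and scaled to a trimmed mean near 499.8 on every array; no MAS5 version was found, and scanner files and detection calls were not analysed here. Signals under 1 were set to 1 and put on the log2 scale. After 64 control probe sets were left out, 22519 probe sets of the upper 50% of mean log2 signal (at least 6.18) entered a single limma model of the 4 groups (version 3.58.1, R 4.3.3, moderated with an intensity trend), and p-values were adjusted by Benjamini-Hochberg over all of them. Of 45037 probe sets 34945 listed 1 gene, 932 several and 9160 none, and all 46 conjugation genes kept their symbol in RefSeq. In 20 simulations of MT against 3-month-old WT, 200 of the 22519 probe sets were changed, picked at random over all signal levels. Of the 2-fold changes 11% to 30% (median 22%) and of the 4-fold changes 64% to 78% (median 69%) were called. These shares were not computed for the conjugation genes, whose signal and spread differ from those of all probe sets. An exact permutation test of 2 against 2 arrays cannot go below 0.333, and the number of arrays limits the precision. The genes, lists and tests were chosen with earlier results of these data known. Named genes were called genes, the 8 of smallest p in each comparison with 3-month-old WT, and the 2 of highest mean log2 signal in GST, UGT and SULT. Plots and sequences were made with Python 3.11.15 and matplotlib 3.10.9.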

Additional observations from a re-analysis of the deposited data

How the results depend on the processing

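Of 24 differences between a named gene and a comparison with 3-month-old WT livers and 3 with all WT groups, none changed sign under any of the 20 alternatives that could be fitted. Over all of these, 493 of 531 values kept their side of the threshold, 20 crossed it to be called and 18 were lost, the last all in the contrast of MT with all WT groups. The count of conjugation genes called in MT against 3-month-old WT livers, 0 of 38, was 2 among the upper 25% of probe sets (Gstm4 and Gstm6), 2 with only the 2 groups fitted (Gstm6 and Ugt2b37), 2 with a robust variance prior (Gstm4 and Gstm6), 3 at an adjusted p under 0.10, 4 by the methods' t-test at an unadjusted p under 0.05 and a fold over 1.5, and 0 to 1 with 1 array left out. That t-test gave 2 at 12 months, 1 at 19 months and 1 between them, and 0 after Benjamini-Hochberg in each. Fitting only the 2 groups gave 2 at 19 months (Gstk1 and Sult5a1). The moderated F test over the 4 groups, which called 0 of 38 and 0.431% of all probe sets, called 2 after adding 16 to the signal, 1 with no filter, 2 with a robust prior, 3 at an adjusted p under 0.10 and 0 to 2 with 1 array left out (2 without the first MT array). The contrast with all WT groups gave 0 without a variance trend and 0 to 4 with 1 array left out. Against 12-month-old WT livers, where 2 were called, 0 were with only the 2 groups fitted or without a variance trend, 1 with the mean of a gene's probe sets, 5 by the methods' t-test (0 after Benjamini-Hochberg) and 0 to 2 with 1 array left out. Against 19-month-old WT livers, where 0 were called, 1 was at an adjusted p under 0.10, 1 by the methods' t-test and 0 to 1 with 1 array left out (1 without the first MT array). The median log2 difference ran from -0.14 to -0.08 in MT and from -0.21 to -0.09 at 12 months with 1 array left out. Replicate numbers are shared by the groups, and whether they pair arrays across groups is not known here. Over all tested probe sets, the differences of array 1 minus array 2 within each group correlated at -0.03 to 0.14 between groups. The highest value was that of the 12-month and 19-month pairs. Among the 38 conjugation genes the first array read higher for 22 at 12 months and for 34 at 19 months. A shared part of these pairs was not tested. With the replicate block, 1 gene was called in MT (Gstm4, -0.83 log2, limma adjusted p = 0.035). The cause of these shifts was not tested. Arrays left out singly leave 1 in a group, whose spread was then assumed to be that of the others.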

Other observations

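Other conjugation and hydrolysis genes held 1 called gene among 18 tested in MT against 3-month-old WT livers. Inmt, an indolethylamine N-methyltransferase, read 29709 and 33122 in MT livers, against 16370 and 17109 in 3-month-old WT livers, and rose by 0.91 log2 with a standard error of 0.12 (limma adjusted p = 0.0181). The WT arrays of 12 months read 17580 and 19162 and those of 19 months 15743 and 13648, all below the MT arrays. None of the 18 was called at 12 or at 19 months. Nnmt, which methylates nicotinamide and was named after its values were seen, stood at -2.21 log2 at 19 months with a standard error of 0.91 (limma adjusted p = 0.371), with 722 and 287 at 19 months and 2028 and 2172 at 3 months.

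Of 5 probe sets that list several conjugation genes, 3 list the same 8 genes of the Ugt1a locus, which share their last exons and include the bilirubin transferase. In MT livers they stood between -0.06 and 0.09 log2 from 3-month-old WT, and at 19 months between -0.10 and -0.001 log2. The first of them read 32272 and 32444 in MT livers, against 30661 and 30216 in 3-month-old WT livers. A probe set listing Gsta2 with 2 other genes read 5172 and 4256 in MT livers, against 2234 and 2608 in 3-month-old WT livers (0.96 log2, standard error 0.40, limma adjusted p = 0.339). It read 4787 and 2290 at 12 months and 5327 and 2305 at 19 months, so its MT arrays did not lie above all WT arrays.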
